A study of Mus musculus with 217 samples.

Results

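Chondrocytes that carried Col10a1, the collagen of hypertrophic cartilage, without Ihh or Ibsp were selected on their measured values among single cells of the mouse tibial growth plate. A profile was a member when its deposited log2 value was at least 5 for Acan, at least 1 for Col10a1 and below 1 for both Ihh and Ibsp. The rule found 69 members among 187 distinct profiles, or among the 176 profiles with high Acan. These 4 genes therefore describe the choice, and their levels are no result.

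At postnatal day 7, tibial growth plates were microdissected from C57/BL mice, all wild-type, and the labels name no treatment. PolyA RNA of each cell had been amplified with SMARTer chemistry and made into Nextera XT libraries. The study placed 217 single-cell columns in 1 table in order to follow chondrocytes through the growth plate. The labels do not tie a column to an animal, so all cells were treated as 1 sample, and no test across samples was possible.

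In the growth plate, chondrocytes divide in columns, leave the cell cycle and enlarge before the cartilage around them is mineralized and replaced by bone. Ihh encodes the hedgehog ligand that prehypertrophic chondrocytes secrete, Col10a1 marks the cells that enlarge, and Ibsp encodes bone sialoprotein, an acidic protein of mineralized matrix found in terminal chondrocytes and osteoblasts. Acan encodes aggrecan, the large proteoglycan of cartilage, which is made by chondrocytes of every zone.

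Members were compared with 3 other classes of Acan-high profiles that share no profile with each other. The Ibsp+ profiles (34) held Col10a1 and Ibsp, and 20 of them also held Ihh. The Ihh+ profiles (34) held Col10a1 and Ihh, with Ibsp below 1. The Col10a1- profiles (39) had Col10a1 below 1, whatever the other genes, and 7 of them held Ihh and 3 Ibsp. All values below are deposited log2 values or differences between means of them, each SD is a spread over profiles, and a gene was called detected when its back-transformed value was at least 1.

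Of the 217 columns, 52 formed 23 sets with correlations of 0.964 to 0.994 and were averaged as repeats. A single column that correlated with columns of other sets, at up to 0.876, was dropped. No doublet caller was run. The depth of each library is unknown, since only scaled values were used here. Members had a median of 3347 detected genes (1326 to 4503), against 3682 in Ibsp+, 3610 in Ihh+ and 3025 in Col10a1- profiles.

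Over averaged profiles, the rule left wider gaps around its limits for Ihh and Ibsp than for Col10a1. The lowest Col10a1 values among members were 1.22, 1.39 and 1.60, and the highest just outside were 0.74, 0.62 and 0.58. The highest Ihh value in a member was 0.38, and the lowest in a profile left out for Ihh alone was 1.96. The corresponding values for Ibsp were 0.78 and 1.65, and the 0.78 was an average of repeat columns at 2.13, 0.22 and 0. Single columns can thus lie on both sides of the limit. Ihh was exactly 0 in 65 members, Ibsp in 64 and both in 61. An exact 0 can be a missed transcript as well as a gene that was silent.

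Columns averaged as repeats showed how far the columns of a set agreed on the class. The labels do not say what these columns are, so they need not show how a separate library would place a cell. The members included 7 profiles averaged from 17 repeat columns, and 15 of these columns met the rule on their own. In 1 set the columns had Col10a1 values of 0 and 2.45, so that 1 column alone would have been Col10a1-. In another the Ibsp values were 2.13, 0.22 and 0, and the first column alone would have been Ibsp+. The pooled SD between repeats of a member was 0.80 for Col10a1, against 0.13 for Panx3 and 0.20 for Epyc.

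Genes that the rule did not use were those of growth plate chondrocytes, as the label says. Panx3, which encodes a channel protein of prehypertrophic chondrocytes, was detected in all 69 members, at 2.88 to 12.49 with a median of 10.69. It averaged 10.18 ± 1.78 in members, against 10.70 ± 2.04 in Ibsp+, 10.90 ± 0.76 in Ihh+ and 8.91 ± 2.01 in Col10a1- profiles. Epyc, which encodes epiphycan, a small leucine-rich proteoglycan of growth plate cartilage, was also detected in every member (10.66 ± 1.15) and averaged 9.97 ± 2.03, 10.77 ± 0.81 and 10.63 ± 1.67 in Ibsp+, Ihh+ and Col10a1- profiles. For both genes the ranges of all classes overlapped. Lect1, which encodes the cartilage protein chondromodulin, had the highest mean of any gene in members (13.38 ± 0.63), followed by the translation factor Eef1a1 and the matrix protein gene Sparc (12.39 ± 0.56). Sox9, the transcription factor of the chondrocyte lineage, was detected in all 69 members at 8.79 ± 1.27. Col2a1, the gene of cartilage type II collagen, was detected in 12 members and reached only 2.18. It was not among the largest differences of the cartilage matrix list against any other class. Its low level is therefore not read as a trait of members.

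**Figure D1:**
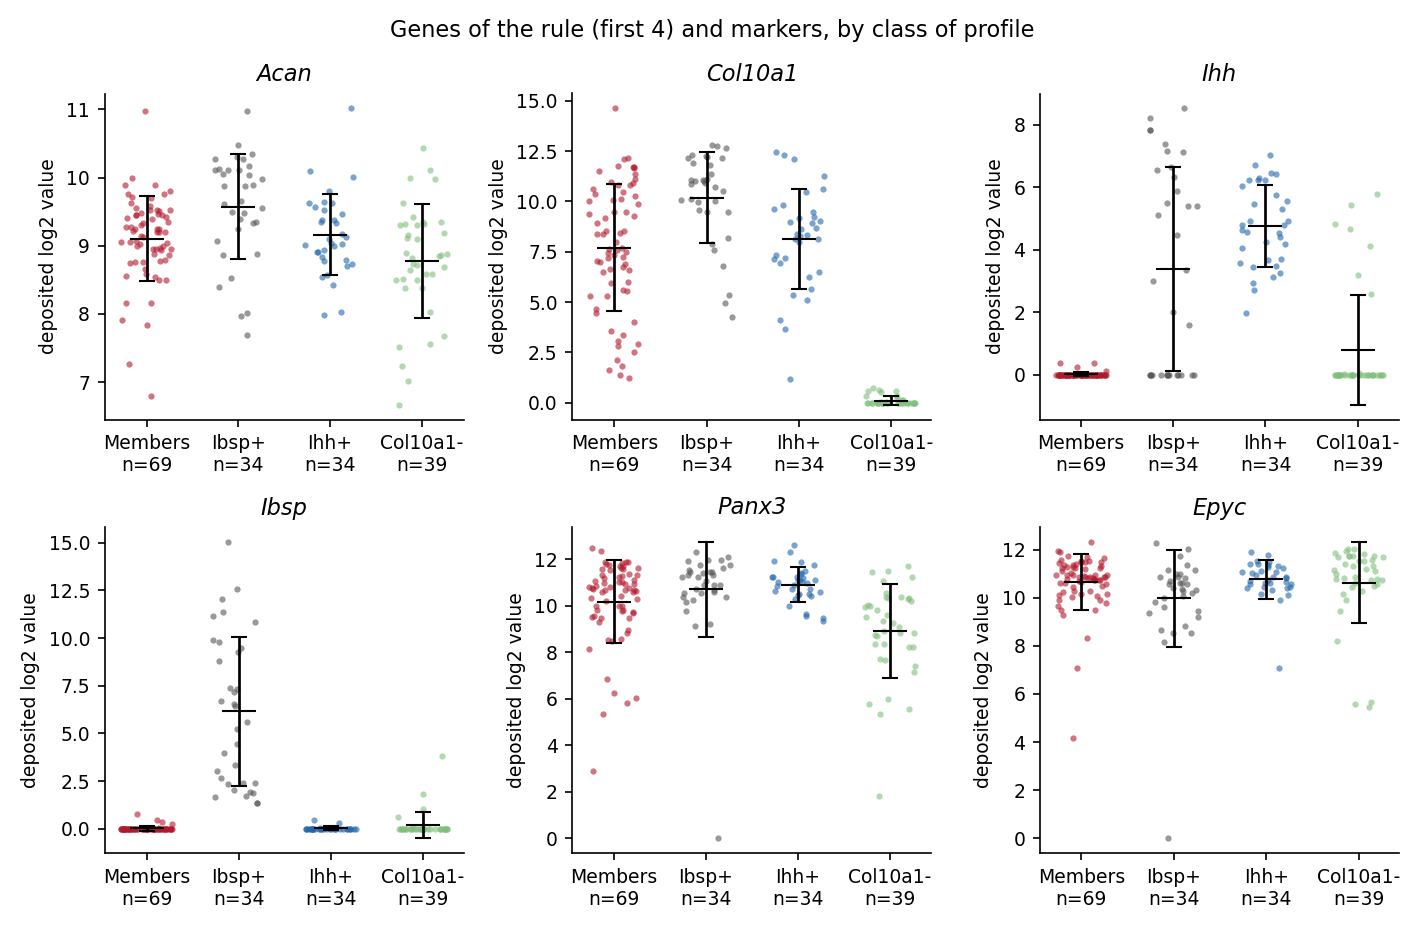
Deposited log2 values (y axes) of the 4 genes of the rule and of Panx3 and Epyc in members, Ibsp+, Ihh+ and Col10a1- profiles (x axes). Points are profiles and bars are mean ± SD; Panx3 averaged 10.18 in members and 8.91 in Col10a1- profiles, while Epyc lay at 10.66 and 10.63.

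The markers Col1a1 of bone, Pecam1 of vessels and Csf1r and Lyz2 of macrophages were detected in few members. Other genes on the osteoblast list (Col1a2, Ifitm5, Bglap) and the macrophage list (Cd68, Cd14) were each detected in at least 10% of Acan-high profiles. Some genes of connective tissue and muscle were not rare in members. Col1a1, which encodes the main collagen of bone, was detected in 2 of 69 members (2.90%, exact Clopper-Pearson 95% interval 0.353 to 10.1%), against 14 of 34 Ibsp+ profiles (41.2%, 24.6 to 59.3%). The endothelial marker Pecam1 was detected in 0 of 69 members, Csf1r and Lyz2 of macrophages in 3 each and Mmp9 of osteoclasts in 1. Pecam1 was the only 1 of 3 endothelial genes that was absent from all members. Adding up their back-transformed levels gave at most 196 in members, 54.4 in Ibsp+, 57.6 in Ihh+ and 24.7 in Col10a1- profiles. The middle value of this endothelial sum was 0 in every class. The cysteine protease gene Ctsk, which osteoclasts express strongly, was detected in 43 members, and the summed back-transformed level of the 3 measured osteoclast genes ran from 0 to 397 in members, 0 to 467 in Ibsp+, 0 to 609 in Ihh+ and 0 to 439 in Col10a1- profiles. The sum of the 5 macrophage genes had a median of 0 in each of these classes and reached 178 in members and 1004 in Ibsp+ profiles. The sum of the 15 osteoblast genes, several of which chondrocytes also express, had medians of 5984 in members, 8731 in Ibsp+, 6922 in Ihh+ and 4073 in Col10a1- profiles, and the part of such cells in any difference below was not tested. The 10 genes of perichondrium, fibroblast and tendon had a median detection share of 32.6% in members, 35.3% in Ibsp+, 25% in Ihh+ and 34.6% in Col10a1- profiles, and their summed level in members ran from 297 to 3461 with a median of 1518. The 5 muscle genes had a median detection share of 15.9% in members, 17.6% in Ibsp+, 14.7% in Ihh+ and 10.3% in Col10a1- profiles, and their summed level reached 1445, 206, 2099 and 3434 in these classes. Intervals and counts of this kind cover counting error only.

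The promoters of 3 genes are printed because their genes carry the main contrasts described here: Col10a1 chose the cells, Lmcd1 differed most from Col10a1- profiles, and Inhba differed most along Col10a1 within members. The sequences are those of RefSeq on build GRCm38.p6, 300 bases each, from 250 bases before the transcription start to 50 after it, 5′ to 3′ on the gene's own strand. Col10a1 lies at chr10:34389731-34390030, Lmcd1 at chr6:112273508-112273807 and Inhba at chr13:16011601-16011900, all on the plus strand. Capitals mark TATAAA on either strand, which was the only one of 3 searched motifs found.
Col10a1: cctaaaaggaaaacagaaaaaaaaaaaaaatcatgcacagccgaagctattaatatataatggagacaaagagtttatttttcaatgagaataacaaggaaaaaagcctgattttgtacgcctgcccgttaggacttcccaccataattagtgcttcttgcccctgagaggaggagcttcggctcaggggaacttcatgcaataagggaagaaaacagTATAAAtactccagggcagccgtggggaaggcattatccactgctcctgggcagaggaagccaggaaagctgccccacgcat
Lmcd1: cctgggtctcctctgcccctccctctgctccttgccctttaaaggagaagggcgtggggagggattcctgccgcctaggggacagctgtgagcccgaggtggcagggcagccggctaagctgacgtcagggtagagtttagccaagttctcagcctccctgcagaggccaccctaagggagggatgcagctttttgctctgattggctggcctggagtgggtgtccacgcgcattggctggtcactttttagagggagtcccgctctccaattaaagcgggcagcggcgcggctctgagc
Inhba: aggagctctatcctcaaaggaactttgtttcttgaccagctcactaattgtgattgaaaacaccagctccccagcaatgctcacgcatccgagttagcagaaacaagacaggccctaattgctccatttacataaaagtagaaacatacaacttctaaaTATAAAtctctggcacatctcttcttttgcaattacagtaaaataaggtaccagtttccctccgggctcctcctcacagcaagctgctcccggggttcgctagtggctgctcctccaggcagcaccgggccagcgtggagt
TATAAA began 32 bases before the start in Col10a1 and 91 bases before it in Inhba, and 13.6% of 32544 RefSeq promoters of this length hold it. Neither TGTGGT, the core bound by RUNX factors (in 16.7% of promoters), nor TGANTCA, bound by AP-1 (in 7.79%), was found on either strand of these windows. No match says only that the letters are not in the window.

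Col10a1 itself varied widely among members. It ran from 1.22 to 14.62 with a median of 7.67 (mean 7.70 ± 3.17). It lay from 1 to under 4 in 11 members, from 4 to under 8 in 25, from 8 to under 12 in 30 and at 12 or more in 3. Members were split at the median into 35 with high Col10a1 (10.25 ± 1.48) and 34 with low Col10a1 (5.08 ± 2.12). The median number of detected genes was 3370 in high-Col10a1 and 3340 in low-Col10a1 members, and Spearman's rho of Col10a1 with genes detected was 0.10 over the 69 members.

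Bmp2, which encodes a bone morphogenetic protein of prehypertrophic and hypertrophic cartilage, followed Col10a1 more closely than any other gene in members. Its values ran from 0 to 8.97 with a median of 5.92 in high-Col10a1 members, against 0 to 8.08 with a median of 2.68 in low-Col10a1 members, so the sets overlapped. It was detected in 33 of 35 high-Col10a1 members and in 19 of 34 low-Col10a1 members, and its mean was higher by 2.42 (5.45 ± 2.33 against 3.03 ± 2.99). From the lowest to the middle and the highest 23 members by Col10a1, Bmp2 was detected in 11, 18 and 23. Its receptor gene Bmpr2 had the same direction, at 3.47 ± 2.48 in high-Col10a1 and 1.60 ± 1.92 in low-Col10a1 members.

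Other genes were also higher in high-Col10a1 members. Slc13a5, which encodes a plasma membrane citrate transporter, was detected in 32 of 35 high-Col10a1 and 17 of 34 low-Col10a1 members. It averaged 4.69 ± 2.04 and 2.14 ± 2.40 in them, a difference of 2.55. Cd200, a membrane glycoprotein gene that has been used to mark skeletal stem cells of the resting zone, was detected in 27 and 11 members of the high and low sets and differed by 2.42. Psmc3, which encodes an ATPase of the proteasome, had the largest difference (2.77, 6.14 ± 1.98 against 3.37 ± 2.85). Dusp14 (a phosphatase gene, 2.56), Lgmn (the lysosomal protease legumain, 2.25), Pmp22 (a membrane protein of myelin, 2.15), Lama4 (a laminin chain of basement membranes, 2.09) and Creb3 (a transcription factor anchored in the endoplasmic reticulum, 2.08) were next, with Arpc1a, Tspan13 and Kif13b at 2.26, 2.05 and 2.02.

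The opposite direction was led by Inhba, which encodes the subunit that forms activin A. In high-Col10a1 members it ran from 0 to 9.55 with a median of 2.91, and in low-Col10a1 members from 0 to 11.26 with a median of 7.61. Its mean differed by -3.14 (3.65 ± 3.70 against 6.80 ± 3.24), and it was detected in 19 of 35 high-Col10a1 and 29 of 34 low-Col10a1 members. The ranges overlapped, and the difference lay between the lowest and the middle 23 members by Col10a1: the means were 7.43, 4.01 and 4.16 from low to high. Gdf10, which encodes a further TGF-beta family ligand, differed by -1.83, Fstl1, which encodes a secreted protein that binds such ligands, by -1.77, and Hmga2, a chromatin protein gene of growing tissues, by -1.71. Hmga2 instead averaged 5.79 in the lowest, 6.0 in the middle and 3.29 in the highest 23 members. Srxn1 (sulfiredoxin, -1.84), Wdr3 (-2.03), Atxn7l3b (-1.78), Gsto1 (-1.75), Riok2 (-1.74), Tatdn1 (-1.71), Snhg3 (-1.66) and Idh3a (a mitochondrial dehydrogenase subunit, -1.66) completed the lowest 12.

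**Figure D2:**
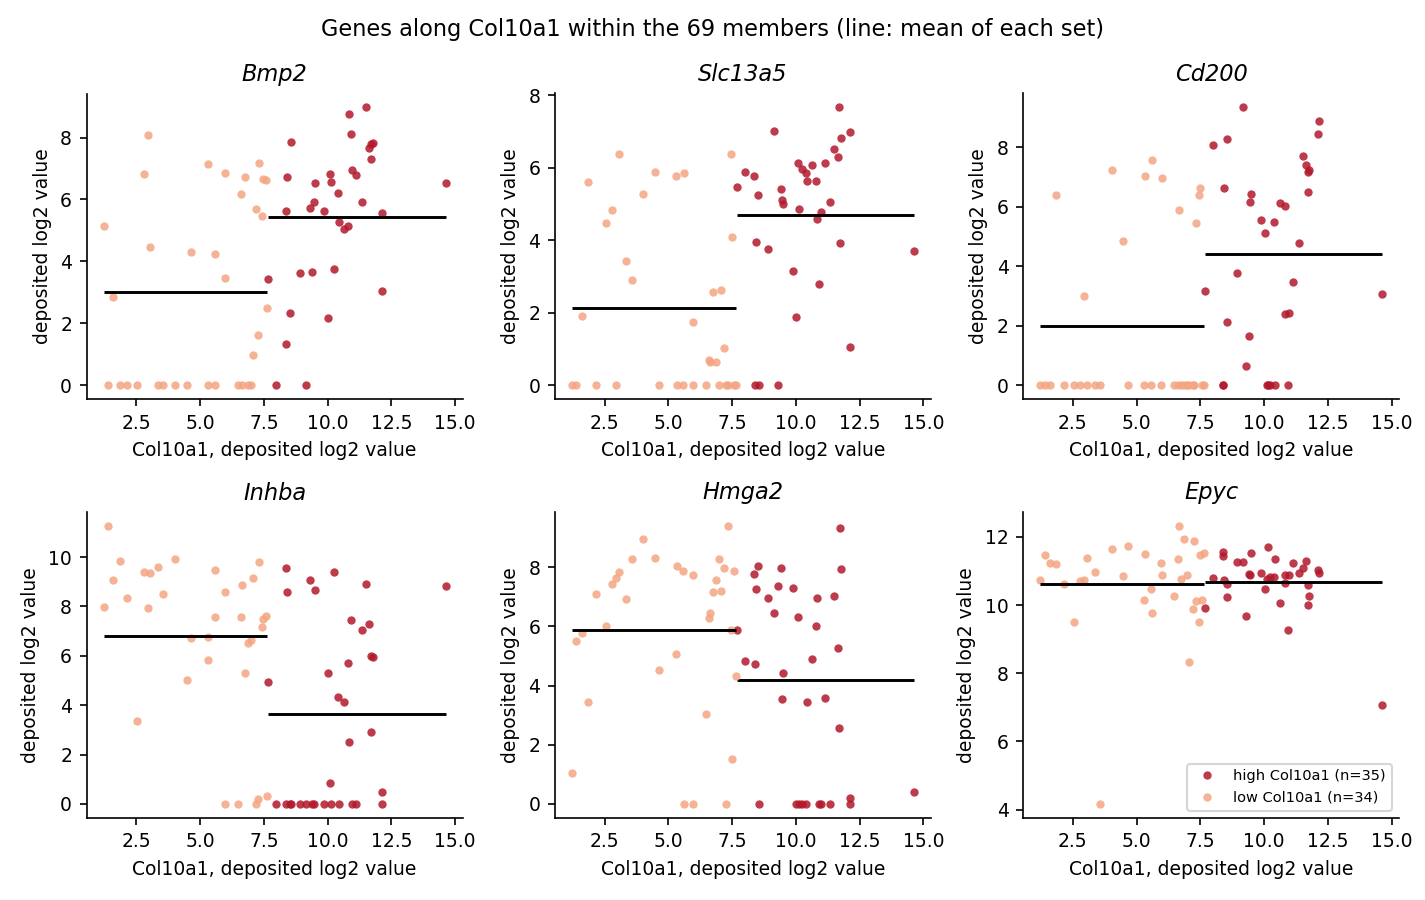
Deposited log2 values of 6 genes (y axes) against Col10a1 (x axes) in the 69 members, with high-Col10a1 members in dark and low-Col10a1 members in pale red and a line at the mean of each set. Bmp2, Slc13a5 and Cd200 were higher by 2.42 to 2.55 in the high set, Inhba differed by -3.14 and Hmga2 by -1.71, and Epyc averaged 10.68 and 10.63.

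Spearman's rho with Col10a1 over the 69 members is a description of cells that share 1 sample, 1 scaling and unknown depths. It was 0.51 for Bmp2, 0.47 for Psmc3, 0.46 for Isg20, an exonuclease gene induced by interferon, 0.45 for Lgmn and Tspan13, and 0.44 for Slc13a5 and Clns1a. It was -0.43 for Atxn7l3b and Golgb1, which encodes the Golgi protein giantin, -0.42 for the intermediate filament gene Vim and for Inhba, -0.40 for Prelp, a small leucine-rich proteoglycan of cartilage, and -0.36 for the fatty acid synthase gene Fasn. Only 16 of 5376 genes reached 0.4 and 5 reached -0.4, with a median of 0.02. Vim was detected in every member and averaged 8.36 ± 1.24 in high-Col10a1 and 9.08 ± 1.01 in low-Col10a1 members.

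Read by list, 3.81% of the 7140 genes that passed the filter (detected in at least 10% of the Acan-high profiles) were higher by at least 1 in high-Col10a1 members and 1.86% were lower, with a median difference of 0.07 and 56.1% of genes above 0. Of the hypertrophic list, 12 of the 16 measured genes passed besides Col10a1 and Ibsp, and 11 of these lay above 0 with a median of 0.37. Adamts1 (a matrix protease gene, 1.80), Tnni2 (a troponin gene, 1.23) and Foxa3 (a forkhead transcription factor gene of hypertrophy, 1.09) passed 1. Of the prehypertrophic list 13 of 16 lay above 0 (median 0.29), and Bmp2 and the netrin receptor gene Unc5b (1.24) passed 1. Of 35 respiratory chain genes 30 lay above 0 (median 0.28), led by Ndufs4 (1.5) and Ndufb9 (1.04). The TGF-beta and activin list had a median of -0.20 over 11 genes, 2 of which, Inhba and Tgfbi (-1.02), were lower by at least 1. After genes detected per profile were regressed out, the shares became 2.46% and 2.96%, Bmp2, Slc13a5 and Inhba differed by 2.01, 2.46 and -3.32, and 9 of the 12 hypertrophic and 24 of the 35 respiratory chain genes lay above 0.

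Of 15 transcription factor genes of hypertrophy that passed, 11 lay above 0 between high-Col10a1 and low-Col10a1 members, with a median of 0.17 against 0.07 for all genes, and 2 were higher and 1 lower by at least 1. Over all genes 3.81% were higher and 1.86% lower by at least 1. Foxa2, a forkhead gene required for hypertrophic differentiation, was detected in 17 of 35 high-Col10a1 members (48.6%, 31.4 to 66.0%) and 6 of 34 low-Col10a1 members (17.6%, 6.76 to 34.5%), and in 2, 11 and 10 of the lowest, middle and highest 23 members. Mef2c, which encodes an activator of Col10a1 and of chondrocyte hypertrophy, was detected in 17 and 10 of them (48.6% and 29.4%, 15.1 to 47.5% for the low set), and its mean differed by 0.68. Hdac4, which encodes a repressor of MEF2 factors, was detected in 4 high-Col10a1 and 11 low-Col10a1 members, and its mean differed by -1.04. Frzb and Sfrp5, which encode secreted inhibitors of WNT signalling, went in opposite directions, with differences of 1.84 and -1.62.

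Late matrix genes were scarce in members. Spp1 (osteopontin) was detected in 9 of 69 members (13.0%, 6.14 to 23.3%), Mmp13 (a collagenase) in 3 (4.35%, 0.906 to 12.2%) and Dmp1 (a mineralized matrix protein) in 4 (5.80%, 1.60 to 14.2%). At least 1 of these 3 genes was detected in 13 members (18.8%, 10.4 to 30.1%), against 20 of 34 Ibsp+ (58.8%, 40.7 to 75.4%), 9 of 34 Ihh+ and 10 of 39 Col10a1- profiles. At least 2 were detected in 2 members and in 11 Ibsp+ profiles. All 3 members with Mmp13 and all 4 with Dmp1 were high-Col10a1 members, whereas Spp1 was detected in 3 high-Col10a1 and 6 low-Col10a1 members. The member of highest Col10a1, an average of 3 repeat columns, also held Mmp13 at 9.81 and Spp1 at 9.15 and had the lowest Lect1 of any member, at 10.02.

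**Figure D3:**
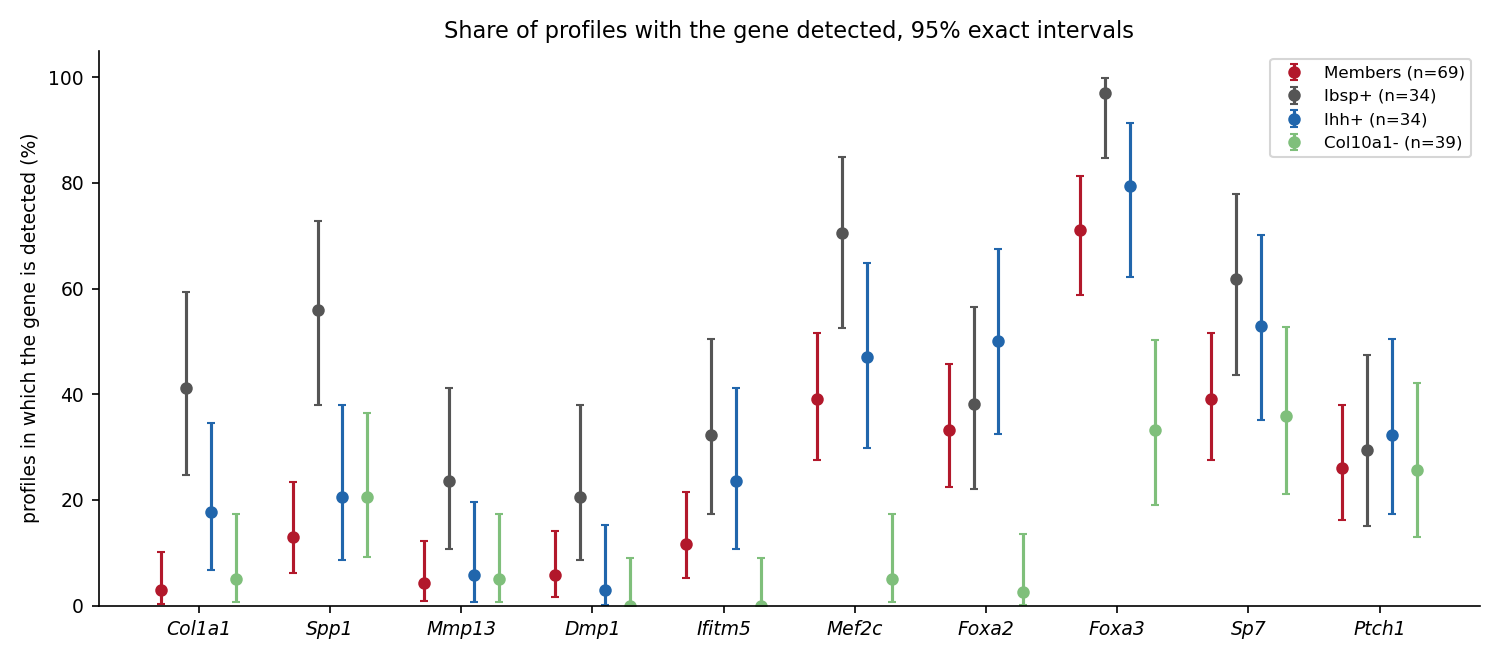
Share of profiles in which a gene was detected (y axis, percent, with exact 95% intervals) for 10 genes (x axis) in members, Ibsp+, Ihh+ and Col10a1- profiles. Col1a1, Spp1, Mmp13 and Dmp1 were detected in 2.90 to 13.0% of members and 20.6 to 55.9% of Ibsp+ profiles, and Ptch1 in 26.1 and 29.4% of them.

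Set against Col10a1- profiles, members had higher values of more genes than lower ones. Over all genes, 5.04% were higher by at least 1 in members and 1.25% were lower, with a median of 0.11 and 60.1% of genes above 0. Lmcd1, which encodes a LIM domain protein known in heart and skeletal muscle, had the largest difference, 3.79. It ran from 0 to 10.03 with a median of 6.87 in members and from 0 to 8.49 with a median of 0 in Col10a1- profiles, and it was detected in 56 of 69 members (81.2%, 69.9 to 89.6%) and 12 of 39 Col10a1- profiles (30.8%, 17.0 to 47.6%). The ranges of values overlapped. Within members Lmcd1 was detected in 32 of 35 with high and 24 of 34 with low Col10a1.

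Ugp2, which encodes the enzyme that makes UDP-glucose, a precursor of glycosaminoglycan chains, averaged 7.55 ± 2.64 in members and 4.20 ± 3.48 in Col10a1- profiles, a difference of 3.36. It was detected in 66 of 69 members and 26 of 39 Col10a1- profiles. Slc13a5 averaged 3.43 ± 2.55 in members and 0.99 ± 1.64 in Col10a1- profiles, and low-Col10a1 members lay between them at 2.14. Gramd2 and Shisa4 were higher in members by 2.53 and 2.33. Nmd3, an export adaptor of the large ribosomal subunit, differed by -2.26, Acta2 (smooth muscle actin) by -1.95, Ndufaf2 (an assembly factor of respiratory complex I) by -1.71, Sox11 (a transcription factor gene of progenitor cells) by -1.68 and Srxn1 by -1.65. Acta2 was detected in 16 of 69 members and 16 of 39 Col10a1- profiles, with medians of 0 in both.

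Several lists lay above the median of all genes, and their counts above 0 stand beside 60.1% of all genes above 0. Their counts higher by at least 1 stand beside 5.04% of all genes. Of 16 prehypertrophic genes 12 lay above 0 (median 0.66), and Unc5b (1.80), Bmp6 (1.54), Bmp2 (1.5), Panx3 (1.27) and the ubiquitin ligase gene Wwp2 (1.01) were higher by at least 1. Of 12 hypertrophic genes 10 lay above 0 (median 0.46), with Foxa3 (1.96), Ctgf (the matricellular protein CCN2, 1.89) and Tnni2 (1.01) past 1. Foxa2 was detected in 23 of 69 members and 1 of 39 Col10a1- profiles, and Mef2c in 27 and 2. Of 18 genes of the BMP pathway 17 lay above 0 (median 0.47), with the ligand genes Bmp6 and Bmp2 and the antagonist gene Nog (1.49) past 1. Of 22 cholesterol synthesis genes 19 lay above 0 (median 0.61), and Lss (lanosterol synthase, 1.24) alone passed 1.

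Proteoglycan chain synthesis stood out by single enzymes rather than as a whole, with a list median of 0.21 over 26 genes. Of these, 7 were higher by at least 1, among them Ugp2, Chsy1 (a chondroitin synthase, 1.63), Impad1 (a phosphatase needed for sulfation, 1.53) and Ext2 (a heparan sulfate polymerase, 1.49). Chsy1 was detected in all 69 members at 8.87 ± 1.05 and in 35 of 39 Col10a1- profiles at 7.24 ± 2.75. Smpd3, which encodes a sphingomyelinase needed for cartilage and bone mineralization, averaged 7.17 ± 1.69 in members and 4.97 ± 2.93 in Col10a1- profiles. It was the only 1 of 14 mineralization and phosphate genes higher by at least 1. The median of that list was 0.12, against 0.11 for all genes. Ucma, a secreted cartilage protein gene of the upper growth plate, differed by -1.32 (detected in 37 of 69 members and 32 of 39 Col10a1- profiles). It was the only 1 of 8 resting zone genes lower by at least 1. Of these 8 genes 5 lay above 0 (median 0.16), and Cd200 (2.19), Foxa2 (1.35) and Nt5e (1.27) were higher by at least 1. Members had more detected genes than Col10a1- profiles (medians of 3347 and 3025), and with genes detected regressed out the shares past 1 became 2.03% higher and 2.65% lower, the prehypertrophic list had 2 genes past 1 instead of 5, the chain synthesis list 4 instead of 7, and the cholesterol list had a median of 0.25 with none past 1. Lmcd1, Ugp2 and Slc13a5 then differed by 3.21, 2.87 and 2.11.

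Against Ihh+ profiles, which differ from members by rule only in Ihh, few genes were far apart. Of all genes 0.532% were higher by at least 1 in members and 2.7% were lower, and the median was -0.08. The genes highest in members were Hdac2 (a histone deacetylase, 1.4), Ppie (a cyclophilin, 1.37), Acpl2 (1.3), Pold4 (a subunit of DNA polymerase delta, 1.25) and Calm3 (calmodulin, 1.23). The lowest were Emc4, a subunit of the membrane insertion complex of the endoplasmic reticulum (-2.26), Cbln2 (-1.97), S100a3 (a calcium-binding protein, -1.90), Tsta3 (GDP-fucose synthase, -1.84) and Fabp7 (a fatty acid-binding protein, -1.80). Emc4 ran from 0 to 8.47 with a median of 4.71 in members and from 3.37 to 8.47 with a median of 6.56 in Ihh+ profiles, and was detected in 49 of 69 members and all 34 Ihh+ profiles. The ranges overlapped at the top and 20 members lay below detection.

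The medians of the zone lists lay near that of all genes between these classes. Of 12 hypertrophic genes 10 lay below 0, and of 16 prehypertrophic genes 11, beside 59.1% of all genes. None of the 16 prehypertrophic genes was higher or lower by at least 1 (median -0.12), and of the 12 hypertrophic genes 1 was lower, Car12, a membrane carbonic anhydrase (-1.06), with a median of -0.20. Chad, a cartilage leucine-rich repeat protein gene, was lower by 1.47 on the log2 scale (8.08 ± 3.05 in members, 9.54 ± 1.95 in Ihh+ profiles), the cyclin gene Ccnd2 by 1.21 and Papss1, an enzyme gene that makes the sulfate donor, by 1.19. Ctsd and Ctsk, both lysosomal protease genes, differed by -1.20 and -1.01. With genes detected regressed out, 0.966% of genes were higher and 1.41% lower, and all 10 genes named first here remained past 1, the smallest at 1.23.

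Genes of the hedgehog pathway were at low levels in members and in the profiles that held the ligand. Of 12 measured genes on this list, 4 passed the filter with Ihh left out: Ptch1, Smo, Gli3 and Cdon. Ptch1, the receptor and a common target of hedgehog signalling, averaged 0.85 ± 1.56 in members, 0.78 ± 1.29 in Ibsp+, 0.85 ± 1.55 in Ihh+ and 0.93 ± 1.67 in Col10a1- profiles. It was detected in 18 of 69 members (26.1%, 16.3 to 38.1%), 10 Ibsp+, 11 Ihh+ and 10 Col10a1- profiles. Smo, the signal-transducing membrane protein, averaged 0.78 ± 1.57 in members and 2.45 ± 2.53 in Ibsp+ profiles (-1.67). Gli1, a transcription factor and target of the pathway, was detected in 4 members and 3 Ihh+ profiles, and Hhip, which encodes an inhibitor that binds the ligand, in 5 members, all of low Col10a1, and no Ihh+ profile. At these low levels a difference would be hard to detect.

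Set against Ibsp+ profiles, members had lower values of many more genes than higher ones: 9.8% of genes were lower by at least 1 and 1.68% were higher, with a median of -0.25. Spry2, which encodes an inhibitor of receptor tyrosine kinase signalling, was the gene most above Ibsp+ profiles. It ran from 0 to 9.95 with a median of 7.43 in members and from 0 to 9.01 with a median of 3.29 in Ibsp+ profiles, and averaged 6.91 ± 2.04 and 3.88 ± 3.08, a difference of 3.03. In Ihh+ and Col10a1- profiles Spry2 averaged 6.35 and 7.38, and it averaged 6.82 in high-Col10a1 and 7.01 in low-Col10a1 members. Rrn3 (an initiation factor of RNA polymerase I, 2.62), Rbm26 (an RNA-binding protein, 2.61), Arglu1 (a splicing modulator, 2.38) and Hmga2 (2.21) were next. Sox9 was higher in members by 1.68 (8.79 ± 1.27 against 7.11 ± 1.66), and Sdc4, which encodes the cell surface proteoglycan syndecan 4, averaged 12.35 ± 0.92 and 10.83 ± 1.27 in the same classes.

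Ptgis, which encodes prostacyclin synthase, was lowest in members relative to Ibsp+ profiles, at -3.48. It ran from 0 to 8.07 with a median of 0.12 in members and from 0 to 9.0 with a median of 6.76 in Ibsp+ profiles, and was detected in 31 of 69 (44.9%, 32.9 to 57.4%) and 31 of 34 (91.2%, 76.3 to 98.1%). Ppapdc1b (a lipid phosphatase gene) differed by -3.29, Gpsm2 (a spindle orientation protein) by -2.94, Spp1 by -2.80 and Id3, a common target of BMP signalling, by -2.78. Id3 was detected in 17 of 69 members and 23 of 34 Ibsp+ profiles, whereas Bmp2 was detected in 52 of 69 members and 32 of 34 Ibsp+ profiles.

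**Figure D4:**
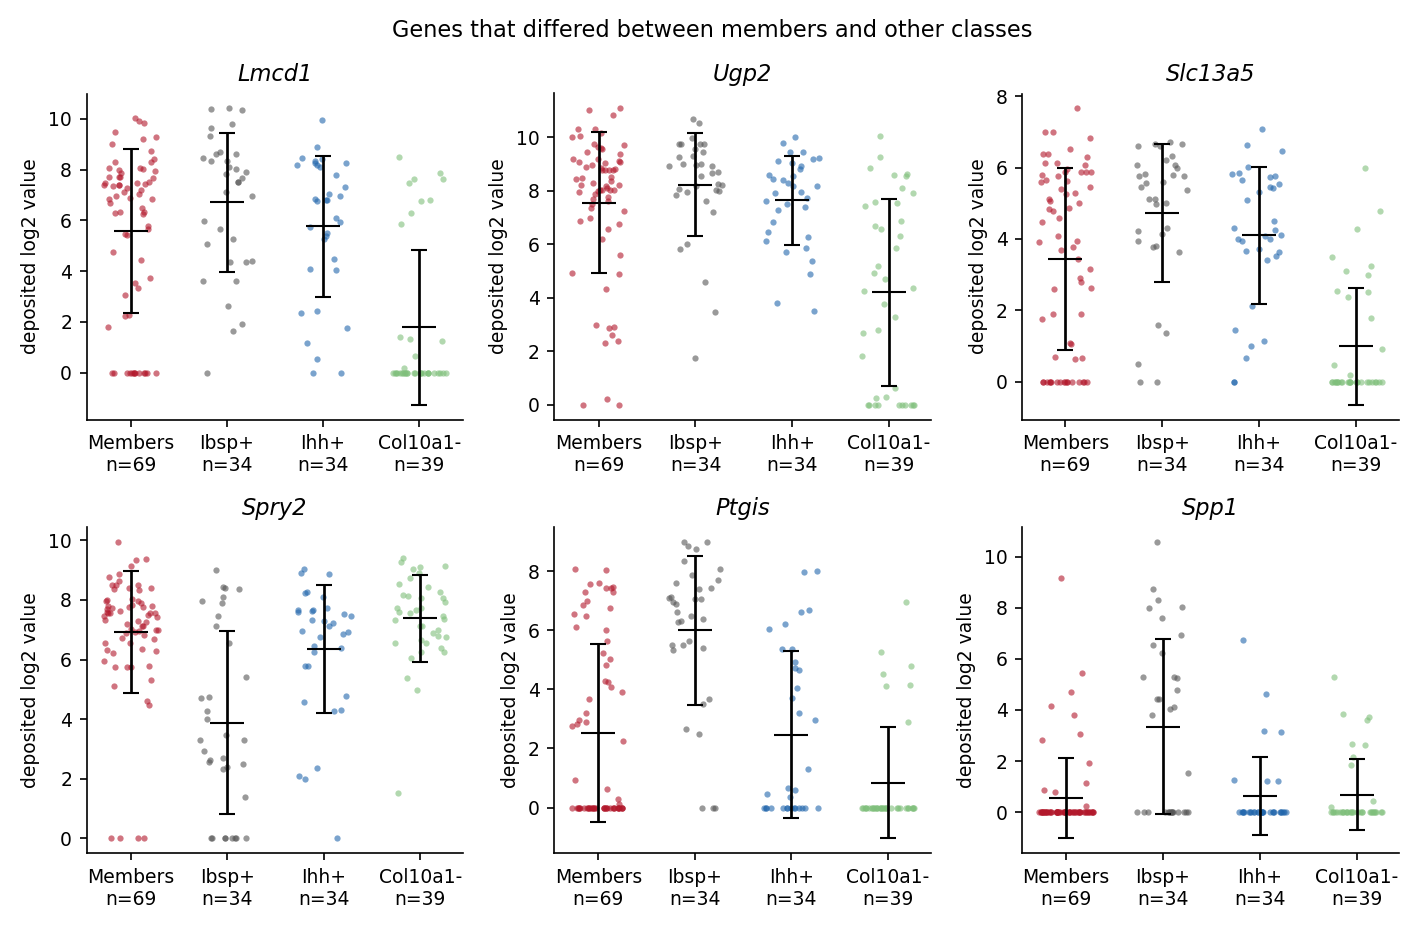
Deposited log2 values (y axes) of Lmcd1, Ugp2, Slc13a5, Spry2, Ptgis and Spp1 in members, Ibsp+, Ihh+ and Col10a1- profiles (x axes), with points for profiles and bars for mean ± SD. Members lay above Col10a1- profiles for Lmcd1 (5.57 against 1.78) and above Ibsp+ profiles for Spry2 (6.91 against 3.88), and below Ibsp+ profiles for Ptgis (2.52 against 6.0).

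All 12 hypertrophic genes that passed lay below 0 against Ibsp+ profiles (median -0.94), where 70.7% of all genes also lay below 0. Over all genes 9.8% were lower by at least 1, the share to set beside the counts in this paragraph. Of the 12 genes 5 were lower by at least 1: Spp1, the forkhead gene Foxo1 (-1.58), Fn1 (fibronectin, -1.24), Car12 (-1.23) and Foxa3 (-1.12). Of 16 prehypertrophic genes 14 lay below 0 (median -0.51), and Unc5b (-1.66), Mef2c (-1.50), Wwp2 (-1.29) and Bmp6 (-1.0) were the 4 lower by at least 1. Immediate-early and heat shock genes, which respond to stress and to cell isolation, had 10 of 23 lower by at least 1 (median -0.88), led by Atf3 (-2.75), Fos (-2.46) and Nr4a1 (-2.41). Atf3 averaged 4.27 ± 3.23 in members and 7.01 ± 2.27 in Ibsp+ profiles. Of 14 CDK inhibitor and D cyclin genes 7 were lower by at least 1 (median -1.01), led by Gadd45g (-2.73), Ccnd2 (-1.62) and the antiproliferative gene Btg2 (-1.39).

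The number of detected genes moved with this contrast, and its part in it was not tested beyond the following values. With genes detected regressed out, the median over all genes was -0.01, and 2.09% of genes were lower and 2.79% higher. The counts lower by at least 1 were then 2 of 12 hypertrophic and 1 of 16 prehypertrophic genes. They were 3 of 23 immediate-early and heat shock genes and 3 of 14 CDK inhibitor and D cyclin genes. Of the 12 hypertrophic genes 3 then lay above 0. The 10 genes named first kept their direction, with Spry2 at 2.60, Ptgis at -2.90 and Spp1 at -2.10. The BMP list had a median 0.40 below that of all genes as deposited, which turned to 0.07 above it after the regression.

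The cartilage matrix and SOX list had a median of 0.23 against Ibsp+ profiles over 18 genes, and Sox9 and Col9a2 (1.13), a type IX collagen gene, were higher by at least 1 while Chad was lower (-1.24). Over all genes 1.68% were higher and 9.8% lower by at least 1. Prelp averaged 7.99 ± 1.58 in members and 6.51 ± 2.51 in Ibsp+ profiles. Insig1, which encodes a brake on cholesterol synthesis, was detected in all 69 members at 7.95 ± 0.98 and averaged 6.26 ± 1.86 in Ibsp+ profiles. Inhba was higher in members by 1.45.

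Some list medians lay on the other side of the median of all genes under another scaling, so their direction depends on it. With genes detected regressed out, the BMP and respiratory chain lists changed side against both Ihh+ and Ibsp+ profiles, WNT against Ibsp+, the CDK inhibitor and D cyclin list against Col10a1-, and cartilage matrix against Ihh+ and along Col10a1. With upper-quartile scaling, respiratory chain and immediate-early changed side against Col10a1-, cartilage matrix against Ihh+ and cholesterol against Ibsp+.

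**Figure D5:**
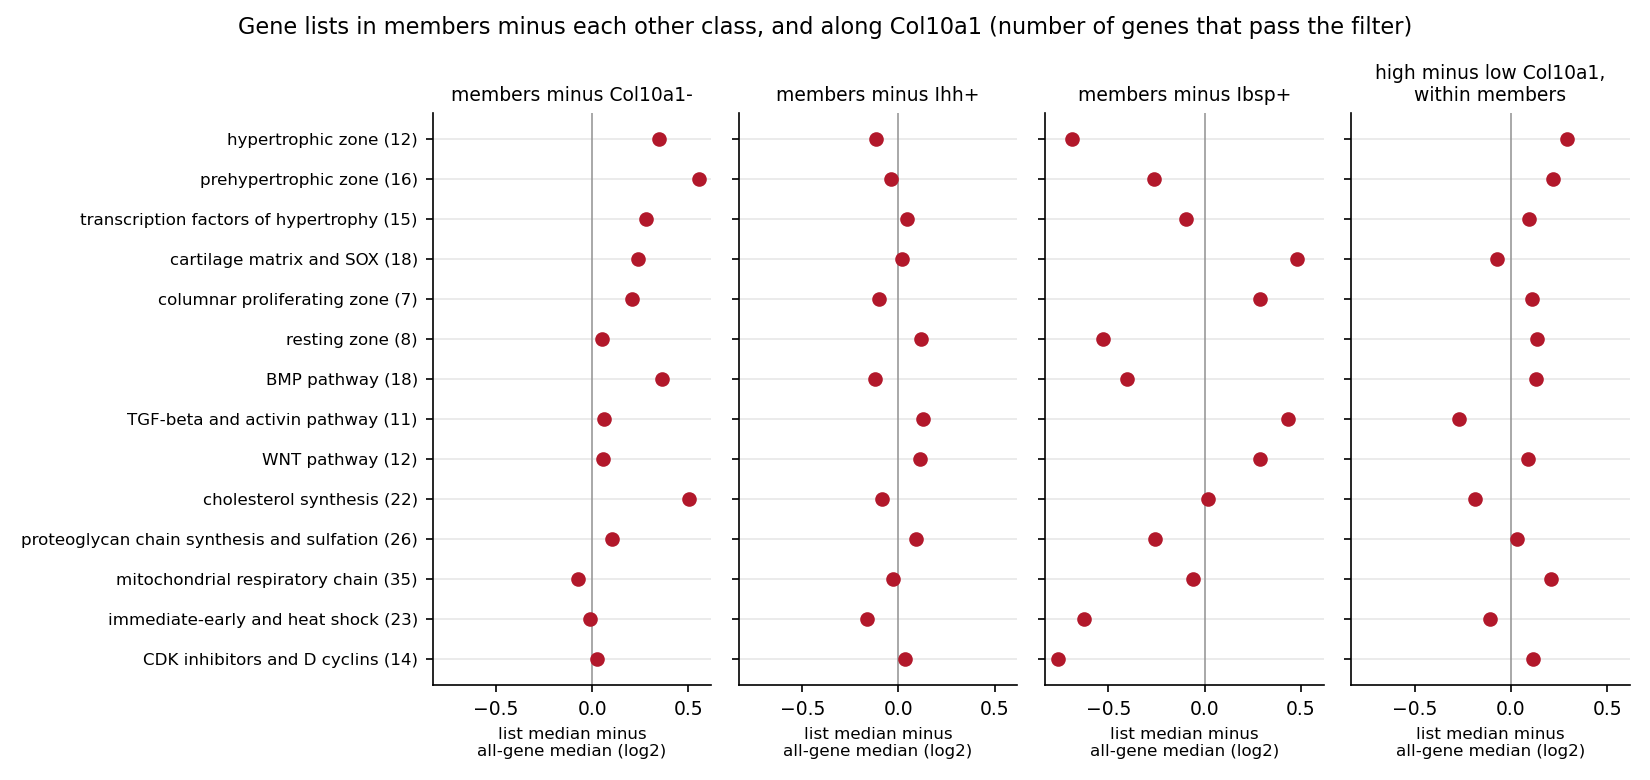
Median difference of each gene list minus the median of all genes (x axes, log2) for 14 lists (y axis, with the number of genes that passed) in members minus Col10a1-, Ihh+ and Ibsp+ profiles and in high minus low Col10a1 members. The hypertrophic list lay 0.35 above all genes against Col10a1- and 0.69 below them against Ibsp+ profiles.

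Set against all 107 other Acan-high profiles at once, few genes were far apart. Only 0.196% of genes were higher by at least 1 in members and 0.546% lower, with a median of -0.07. Tmx2 (a thioredoxin-like membrane protein, 1.28), Chrdl1 (a secreted BMP antagonist, 1.25), Vcpip1 (a deubiquitinase, 1.22), Zcchc7 (1.17), Mmadhc (a vitamin B12 pathway protein, 1.14), Klk10 (a kallikrein-related peptidase, 1.07), Fopnl (1.06), Ddit3 (the stress factor CHOP, 1.05), Tmem5 (1.03), Fnip1 (1.03) and Chsy1 (1.01) were among the highest. Chrdl1 ran from 0 to 8.83 with a median of 4.96 in members and from 0 to 8.40 with a median of 2.58 in the others, and was detected in 52 of 69 and 61 of 107. The sets overlapped throughout. Chrdl1 also averaged 5.01 ± 2.88 in high-Col10a1 and 3.43 ± 3.0 in low-Col10a1 members. The 107 others pool 3 unlike classes, so a pooled difference need not hold against each of them. Ddit3 differed by 2.07 from Col10a1- and by 0.66 from Ihh+ profiles. Chsy1 differed by 1.63 from Col10a1- and by 1.14 from Ibsp+ profiles.

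Psmc5, which encodes another proteasome ATPase, was the lowest at -1.60 (4.57 ± 2.89 in members, 6.18 ± 2.40 in the others), and it was detected in 55 of 69 members and 100 of 107 others. It was followed by 2700029M09Rik (-1.45), Nmd3 (-1.43), Emc4 (-1.41), Batf3 (a bZIP transcription factor, -1.33), H2-D1 (an MHC class I gene, -1.31), Loxl3 (a lysyl oxidase-like enzyme, -1.3), Nfkbia (the inhibitor of NF-kappaB, -1.29), the chromatin remodellers Smarca1 (-1.25) and Chd4 (-1.23), Slc25a17 (a peroxisomal carrier, -1.22) and Impdh2 (an enzyme of guanine nucleotide synthesis, -1.17). Against single classes, Nmd3 differed by -2.26 from Col10a1- profiles and Emc4 by -2.26 from Ihh+ profiles. Chd4 was detected in 24 of 69 members and 67 of 107 others. All 10 S phase genes that passed lay below 0, as did 59.7% of all genes, with a list median of -0.22, 0.15 below that of all genes, and only Slbp, the histone mRNA binding protein gene, lower by at least 1 (-1.15). Mki67, the proliferation marker, was detected in 4 of 69 members, 4 of 34 Ibsp+, 2 of 34 Ihh+ and 5 of 39 Col10a1- profiles. With genes detected regressed out the shares past 1 were 0.336% higher and 0.280% lower.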

How the data were processed

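Single-cell RNA-seq values of 217 columns and 9739 genes were taken as the authors deposited them; 1 row without a gene name was left out. The deposited values are on a log scale taken as log2 of a depth-scaled abundance plus a pseudocount of 1: base 2 gave the most even back-transformed totals, which varied between columns by 7.33% (SD over mean), against 14.8% for base e and 190.5% for base 10. TopHat and mm10 are named per the submitters' processing notes; for the quantifier, the annotation and the abundance unit, nothing is given in the sources used here.

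Columns correlated above 0.95 were averaged as repeats, which gave 187 profiles. Differences are between means over profiles; with 1 sample no p-value was computed. Genes were compared, and counted at a difference of at least 1, if detected (back-transformed value of at least 1) in at least 10% of the Acan-high profiles, and the 4 genes of the rule were left out. Genes are named by a rule: among genes detected in at least 20% of those profiles, the 12 highest and 12 lowest differences for members against all others and for high against low Col10a1, 5 each for the other comparisons, 8 rho values per direction, the 10 highest means, the markers, the 3 largest of each list described, and the zone, transcription factor and hedgehog genes; further genes were chosen after their values were seen. A gene that the rule names is not reported here. Members and lists were chosen with earlier results of these data known. Shares have exact Clopper-Pearson 95% intervals. Alternatives were another pseudocount, upper-quartile scaling, regression on genes detected, no filter, other limits of the rule, all columns kept and poor profiles left out. Scripts were tested on simulated data. The tools were pandas 2.3.3, NumPy 2.4.6, NetworkX 3.6.1, SciPy 1.17.1 and matplotlib 3.10.9 under Python 3.11.15.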

Additional observations from a re-analysis of the deposited data

How the results depend on the processing

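No paired analysis was possible because all cells form 1 sample and no replicate number is given. Shares of genes past 1 depended on the scale. With a pseudocount of 0.1 they were 1.79% higher and 4.65% lower in members than in all other profiles, and 13.0% and 6.57% in high against low Col10a1 members. With genes detected regressed out they were 0.336% and 0.280% against all others, 2.46% and 2.96% for high against low Col10a1, 2.03% and 2.65% against Col10a1-, 0.966% and 1.41% against Ihh+, and 2.79% and 2.09% against Ibsp+ profiles. Upper-quartile scaling gave 0.770% lower against Col10a1-. For high against low Col10a1, dropping the poorest 10% of profiles by genes detected gave 3.03% lower, and the highest 23 against the lowest 23 members gave 7.54% and 3.46%. The cause was not tested in any of these.

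The 522 recomputed differences of named genes kept their sign and moved by less than 1 SD of the gene over profiles of the first class. That is a wide limit, since for genes such as Psmc5 this SD exceeded the difference itself. Alternatives added after seeing the data were included: the dropped column kept in, and the member of highest Col10a1 left out. Not all stayed past 1. Against all other profiles, 20 of 24 did with all columns kept, with the poorest profiles left out or with Ihh and Ibsp exactly 0, 21 with Col10a1 of at least 3, and 23 with upper-quartile scaling or the dropped column kept in. Klk10 was at 0.70 with all columns kept. Between the highest and lowest 23 members 21 of 24 did, without Gdf10 (-0.94), Fstl1 (-0.89) and Gsto1 (-0.81). Of 32 recomputed shares of members, 23 stayed within their interval, and 9 moved, all with detection set at 10: Mef2c to 13.0%, Sp7 to 23.2%, Bmp6 to 63.8%, Ucma to 30.4%, Sfrp5 to 27.5%, Bmp2 to 62.3%, Slc13a5 to 55.1%, Ptch1 to 11.6% and Col1a1 to 0%. Depth is unknown, so a value of 0 gives no limit on expression.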
